A study of Mus musculus with 6 samples.

Results

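The transcripts described here encode 8 transcription factors of kidney tubule identity, Hnf4a, Ppara, Nr1h4, Esrrg, Pax2, Pax8, Gata3 and Tfcp2l1. They were taken by symbol from 23282 rows of gene values, and all 8 passed the filter on low values that left 13317 genes. The libraries came from whole kidney of inbred laboratory mice, 3 of strain C57BL/6 (B6) and 3 of strain BALB/c, for which the labels name no treatment, transgene, age or sex. Libraries were made with a QuantSeq kit, which reads the 3′ ends of polyadenylated transcripts. The values are therefore amounts of 3′ ends in CPM, a library's reads scaled to a similar but not identical total. The CPM of all rows summed to between 980188 in BALB/c replicate 2 and 1043600 in B6 replicate 3. Promoter or exon choice within a gene was not measured.

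A nephron is a chain of segments that filter, reabsorb and secrete, and each segment keeps its identity through its own set of transcription factors. HNF4A is the main factor of the mature proximal tubule, where the nuclear receptors PPARA and FXR (encoded by Nr1h4) respond to fatty acids and bile acids. The orphan receptor ESRRG drives oxidative metabolism and is known for distal nephron expression. PAX2 and PAX8 are paired-box factors without which no kidney forms and which persist in tubule epithelium. GATA3 and TFCP2L1 mark the collecting duct, where TFCP2L1 patterns principal and intercalated cells.

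Library depth was between 8310777 and 10416270 reads. The Y-linked genes Kdm5d, Uty and Eif2s3y had 0 reads in every library, and the fourth, Ddx3y, had 1, 1 and 0 reads in B6 and 8, 0 and 0 reads in BALB/c. Xist, transcribed from the inactive X chromosome, was between 104.3 and 164 CPM in B6 and between 188 and 193 CPM in BALB/c and was called lower in B6. Kidney markers were abundant, with summed proximal tubule markers (12 genes) between 17643 and 23249 CPM in B6 and between 18250 and 20211 CPM in BALB/c. Of 8 adrenal cortex markers 5 were at 0 in all libraries, while Star was detected in each, at 2.52 to 3.92 CPM in B6 and 1.84 to 6.13 CPM in BALB/c. A transcript with 0 reads could still have been present at up to 0.290 to 0.354 CPM, the value of 3 reads in a library.

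None of the 8 factors passed the test between the strains (limma, Benjamini-Hochberg adjusted p under 0.05), whereas 1211 of the 13317 genes did, 9.09%, with 4.93% higher and 4.17% lower in B6. At an unadjusted p under 0.05 there were 2 of the 8, Gata3 and Esrrg, beside 21.3% of all genes, and limma-voom on recovered reads called 0. The strains did not overlap in CPM for 2 of the 8, Esrrg and Nr1h4, beside 25.4% of all genes. The log2 fold of B6 over BALB/c was positive for 6 factors and negative for 2, with a median of 0.12 against a median of -0.0023 over all genes. In absolute size the median was 0.31 for the factors and 0.22 for all genes. The intervals of Hnf4a, Ppara and Tfcp2l1 lay within 0.5 of 0 on the log2 scale, and those of 7 of the 8 lay within 1. Fold changes are on the log2(CPM + 1) scale, and intervals are 95% confidence intervals of limma for each gene, not adjusted for the number of genes.

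**Figure D1:**
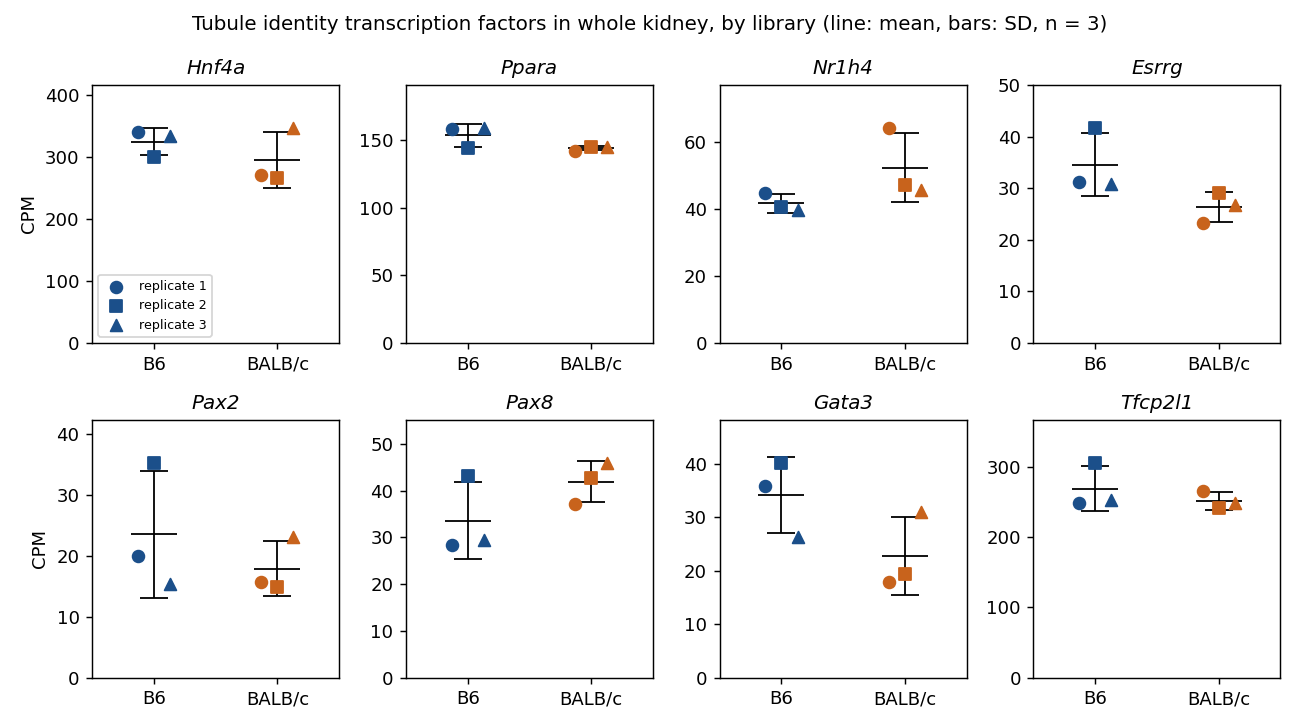
CPM of the 8 factors in each library, B6 on the left and BALB/c on the right of each panel, with symbols for replicate numbers, a line at the mean and bars of 1 SD (n = 3). Only Esrrg and Nr1h4 show strains that do not overlap, and B6 replicate 2 is the highest B6 library for Pax2, Pax8, Esrrg, Gata3 and Tfcp2l1.

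**Figure D2:**
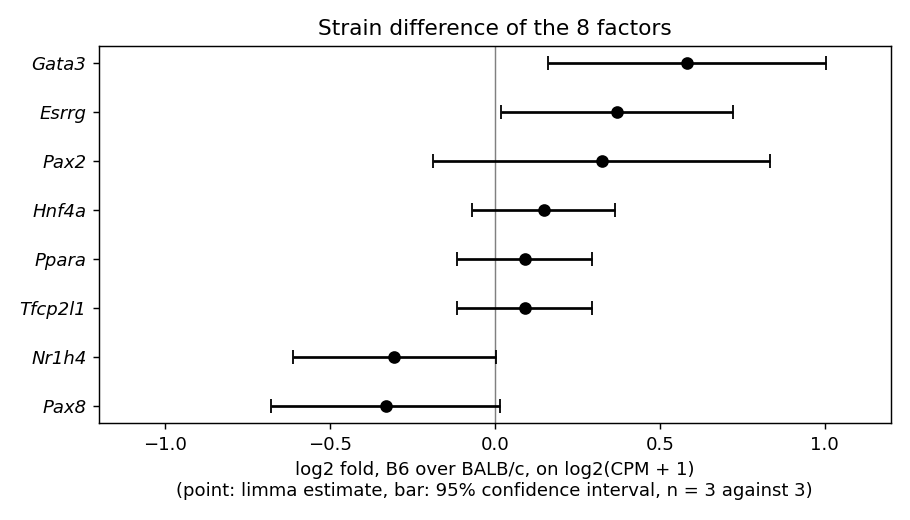
Log2 fold of B6 over BALB/c on the log2(CPM + 1) scale for each factor, with the limma estimate as a point and its 95% confidence interval as a bar. Gata3 has the highest fold at 0.58 and Pax8 the lowest at -0.33, and no factor had an adjusted p under 0.05.

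Hnf4a encodes the nuclear receptor that holds proximal tubule cells in their mature state. The gene lies on chromosome 2, 163506808 to 163572910, plus strand (GRCm38). RefSeq gives it a pair of start sites, known as the P2 promoter (upstream) and the P1 promoter (downstream), and 3′ end reads do not tell their transcripts apart. RefSeq windows of 250 bases before a start (GRCm38.p6) number 14 for the 8 factors. Those of Hnf4a and Nr1h4 are printed 5′ to 3′ on the gene's strand, to show both starts of Hnf4a beside that of another proximal tubule receptor. They are chr2:163506607-163506856 for P2, chr2:163546905-163547154 for P1 and chr10:89506659-89506908 on the minus strand for Nr1h4.
Hnf4a P2: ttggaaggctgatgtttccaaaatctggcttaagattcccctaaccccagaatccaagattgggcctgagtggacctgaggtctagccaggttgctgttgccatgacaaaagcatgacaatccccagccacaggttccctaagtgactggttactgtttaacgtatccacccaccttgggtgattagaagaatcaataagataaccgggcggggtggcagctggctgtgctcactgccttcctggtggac
Hnf4a P1: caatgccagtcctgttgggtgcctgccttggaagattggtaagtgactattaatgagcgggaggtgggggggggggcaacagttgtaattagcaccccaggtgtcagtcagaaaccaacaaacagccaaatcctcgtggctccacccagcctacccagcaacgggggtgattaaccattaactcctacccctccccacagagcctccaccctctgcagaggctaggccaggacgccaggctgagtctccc
Nr1h4: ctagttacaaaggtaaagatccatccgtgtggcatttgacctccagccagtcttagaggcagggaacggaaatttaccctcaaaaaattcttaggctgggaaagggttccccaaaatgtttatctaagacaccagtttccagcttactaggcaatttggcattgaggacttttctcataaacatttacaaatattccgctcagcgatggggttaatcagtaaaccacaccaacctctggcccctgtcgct
The letters CAAAGTCCA for HNF4, TCAAGGTCA for ERR factors and AGATAAG for zinc finger factors such as GATA3, searched on both strands, occur in 0.384%, 0.387% and 2.74% of all 32851 windows and in 0 of the 14, so that no letters are in capitals. That says only that these letters are not in the windows.

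Hnf4a was at 342, 300.1 and 334 CPM in B6 replicates 1 to 3, against 271, 266 and 348 CPM in BALB/c replicates 1 to 3. The strains overlapped because BALB/c replicate 3 had the highest level of all 6 libraries. The log2 fold was 0.15 ± 0.10 (SE, n = 3 each; limma adjusted p = 0.456), with an interval of -0.07 to 0.36. It was 0.27 without BALB/c replicate 3 (adjusted p = 0.130), 0.09 without BALB/c replicate 1 (0.761) and 0.08 without BALB/c replicate 2 (0.798). With 2257 to 3468 reads in a library, counting error was 1.82% of the mean in B6 and 1.88% in BALB/c, while the CV between mice was 6.79% in B6 and 15.4% in BALB/c. The spread between mice therefore exceeded counting error in both strains. Per 100 CPM of summed proximal tubule markers, Hnf4a had 1.59, 1.70 and 1.44 CPM in B6 and 1.34, 1.40 and 1.90 CPM in BALB/c, again with overlap. Kap alone held 12502, 9120 and 14401 CPM of that sum in B6 and 11803, 10937 and 9351 CPM in BALB/c. Ratios to the sum therefore follow Kap more than any other proximal tubule marker. In whole kidney, fewer cells of a type and less RNA per cell cannot be told apart. Hepatocytes also express Hnf4a, Nr1h4 and Ppara. The sum of 8 hepatocyte markers was between 71.0 and 97.7 CPM in B6 and between 39.2 and 45.3 CPM in BALB/c, without overlap. Cyp2e1 was the largest part of that sum, at 40.1, 56.2 and 29.4 CPM in B6 and 37.3, 23.0 and 26.1 CPM in BALB/c. Of the 6 tested, 2 were called higher in B6, beside 9.09% of all genes called. They were the fibrinogen gene Fgb (log2 fold 3.24, limma adjusted p = 2.24e-06) and Apoa2 (1.73, 0.00119). Serpina3k (-0.30) and Ahsg (-0.09), with strain means of 0.71 to 1.07 CPM, were not called. Cps1 was at most at 0.60 CPM in any library. Alb was detected in every library, at 13.1 to 15.1 CPM in B6 and 5.42 to 11.3 CPM in BALB/c, and Tat was at 0 in all. The part of these transcripts in the levels of the 3 receptors was not tested.

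Ppara encodes the fatty acid receptor that switches on peroxisomal and mitochondrial oxidation. On chromosome 15, 85734983 to 85802819, plus strand, it was at 158, 144 and 159 CPM in B6, against 142, 145 and 145 CPM in BALB/c. The strains overlapped, and the highest library exceeded the lowest by a factor of 1.12, the smallest ratio among the 8 factors. B6 over BALB/c gave a log2 fold of 0.09 ± 0.10 (SE, n = 3 each; limma adjusted p = 0.671), with an interval of -0.11 to 0.30, which corresponds to a fold between 0.924 and 1.23. The CV between BALB/c mice was 1.17%, below the counting error of 2.69%.

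Nr1h4 encodes FXR, the bile acid receptor. On chromosome 10, 89454234 to 89533585, minus strand, it was at 44.9, 40.7 and 39.7 CPM in B6, against 64.3, 47.2 and 45.7 CPM in BALB/c. All 3 B6 libraries were lower than every BALB/c library, though B6 replicate 1 and BALB/c replicate 3 were close to each other. The log2 fold was -0.30 ± 0.15 (SE, n = 3 each; limma adjusted p = 0.240), with an interval of -0.61 to 0.0031. BALB/c replicate 1 carried much of the difference, and without it the log2 fold was -0.15 (limma adjusted p = 0.683, over 16 alternatives 0.171 to 0.683). Per 100 CPM of proximal tubule markers, Nr1h4 had 0.209, 0.231 and 0.171 CPM in B6 and 0.318, 0.247 and 0.250 CPM in BALB/c, also without overlap.

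Esrrg encodes the orphan receptor ERR gamma, a driver of mitochondrial genes. On chromosome 1, 187608791 to 188214885, plus strand, it was at 31.2, 41.7 and 30.9 CPM in B6, against 23.3, 29.0 and 26.8 CPM in BALB/c. All 3 B6 libraries were higher than every BALB/c library. The difference was 0.37 ± 0.17 on the log2 scale (SE, n = 3 each; limma adjusted p = 0.2005), with an interval of 0.02 to 0.72, and without B6 replicate 2 it was 0.23 (adjusted p = 0.539, over 16 alternatives 0.187 to 0.539). Per 100 CPM of summed thick ascending limb markers (8 genes), Esrrg had 0.682, 0.764 and 0.763 CPM in B6 and 0.535, 0.625 and 0.628 CPM in BALB/c, without overlap. Per 100 CPM of the 8 distal tubule markers it had 1.01, 1.40 and 0.896 CPM in B6 and 0.840, 1.03 and 1.01 CPM in BALB/c, with overlap. The distal marker sum itself was between 2980 and 3452 CPM in B6 and between 2647 and 2807 CPM in BALB/c. The part of these marker levels in the Esrrg difference was not tested. Ratios to marker sums were added after the factors' levels had been seen.

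Pax2 encodes the paired-box factor of the ureteric bud and early nephron. On chromosome 19, 44756045 to 44837871, plus strand, it was at 20.04, 35.3 and 15.4 CPM in B6, against 15.7, 14.9 and 23.1 CPM in BALB/c. B6 replicate 2 was the highest and the strains overlapped. The log2 fold was 0.32 ± 0.25 (SE, n = 3 each; limma adjusted p = 0.498), with an interval of -0.19 to 0.83. That library decided the value: without B6 replicate 2 the log2 fold was 0.0018 (adjusted p = 0.999), and without B6 replicate 3 it was 0.58 (0.194). Without BALB/c replicate 3 it was 0.51 (0.287) and without BALB/c replicate 2 it was 0.21 (0.763). With 126 to 350 reads in a library, the CV between B6 mice was 44.2%, against a counting error of 6.70%. This was the largest CV among the 8 factors in either strain.

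Pax8 encodes the related factor that acts with PAX2 in the mesonephric duct and nephron. It lies on chromosome 2, 24420560 to 24475599, minus strand, and shares 367 exon bases with Gm13415 on the other strand. It was at 28.4, 43.0 and 29.4 CPM in B6, against 37.2, 42.7 and 46.0 CPM in BALB/c. The strains overlapped through B6 replicate 2, while the other two B6 libraries were below every BALB/c library. B6 over BALB/c gave -0.33 ± 0.17 on the log2 scale (SE, n = 3 each; limma adjusted p = 0.260), with an interval of -0.68 to 0.02. Without B6 replicate 2 it was -0.52 (adjusted p = 0.0555, over 16 alternatives 0.0555 to 0.585). Pax2 and Pax8 thus had folds of opposite sign, neither of which passed the test. Of the summed CPM of Pax2 and Pax8 in a library, Pax2 made up 41.4%, 45.0% and 34.3% in B6, against 29.7%, 25.8% and 33.4% in BALB/c. The B6 shares were all higher, the closest pair being B6 replicate 3 and BALB/c replicate 3. This share was chosen after the levels had been seen and was not tested. The same share was computed for the pairs Hnf4a with Ppara and Gata3 with Tfcp2l1, and both overlapped between the strains.

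Gata3 encodes a zinc finger factor of the collecting duct lineage that mesangial cells, urothelium and lymphocytes also express. It lies on chromosome 2, 9857078 to 9890034, minus strand. It was at 35.8, 40.2 and 26.3 CPM in B6, against 17.9, 19.3 and 31.1 CPM in BALB/c. The strains overlapped because BALB/c replicate 3 was above B6 replicate 3. The log2 fold was 0.58 ± 0.20 (SE, n = 3 each; limma adjusted p = 0.0794), with an interval of 0.16 to 1.01, the highest of the 8 factors. Leaving out either of the 2 overlapping libraries brought Gata3 past the threshold. They were the lowest B6 and the highest BALB/c library, so that leaving either out had to raise the fold. The log2 fold was 0.82 without BALB/c replicate 3 (limma adjusted p = 0.0120, beside 7.90% of all genes called there) and 0.75 without B6 replicate 3 (0.0326, beside 7.53%). Each other omission lowered it. Without B6 replicate 1 it was 0.54 (0.238), without B6 replicate 2 0.46 (0.2445) and without BALB/c replicate 2 0.49 (0.243). Without BALB/c replicate 1 it was 0.44 (0.301), the highest p over the 16 alternatives.

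Gata3 shares 77 exon bases with 9230102O04Rik on the same strand and 155 with Gm13256 on the other. The row of 9230102O04Rik held 37, 44 and 10 reads in B6 and 49, 14 and 53 reads in BALB/c, while Gata3 held 325, 399 and 235 reads in B6 and 185, 164 and 310 reads in BALB/c. Of the other sources of Gata3, the 10 mesangial and smooth muscle markers summed to between 299.6 and 383 CPM in B6 and between 222 and 306 CPM in BALB/c. Of these, 9 had a positive log2 fold, and the median was 0.51 beside -0.0023 over all genes. Acta2 (0.82), Myh11 (0.56) and Tagln (0.51) were positive, while Pdgfrb had 0.19 and Itga8 was negative (-1.25). Of the 10 markers, 6 had an unadjusted p under 0.05 in limma, beside 21.3% of all genes. Among them Art3, at 0 to 0.70 CPM in BALB/c, passed the filter on low values only through B6. In limma 2 of the 10 were called, beside 9.09% of all genes, Acta2 higher in B6 and Itga8 lower. Per 100 CPM of that sum, Gata3 had 11.9, 11.9 and 6.88 CPM in B6 and 5.85, 7.08 and 14.0 CPM in BALB/c, with overlap. The 8 urothelium markers summed to between 9.19 and 20.8 CPM in B6 and between 8.32 and 16.1 CPM in BALB/c. The 14 T cell and innate lymphoid markers summed to between 4.37 and 5.40 CPM in B6 and between 7.41 and 12.6 CPM in BALB/c, and Areg, Il5, Il13 and Ccr8 were at 0 in every library. Only Thy1 of the 14 passed the filter on low values. The part of mesangial cells, urothelium and lymphocytes in the Gata3 difference was not tested.

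Tfcp2l1 encodes a grainyhead-family factor that sets the mix of principal and intercalated cells. It lies on chromosome 1, 118627945 to 118685168, plus strand, and shares 130 exon bases with the small nuclear RNA gene Gm23497. It was at 248, 306 and 253 CPM in B6, against 266, 241 and 248 CPM in BALB/c. Apart from B6 replicate 2, the libraries of both strains lay between 241 and 266 CPM. The log2 fold was 0.09 ± 0.10 (SE, n = 3 each; limma adjusted p = 0.675), with an interval of -0.12 to 0.30. Without B6 replicate 2 it was -0.0050 (adjusted p = 0.990).

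Libraries of a strain differed in the sum of principal cell markers. The 8 principal cell markers summed to 569, 858 and 424 CPM in B6, against 573, 517 and 623 CPM in BALB/c. B6 replicate 2 was the highest library for this sum and for Pax2, Gata3 and Tfcp2l1. The same library was the highest for Esrrg (41.7 CPM) and for the thick ascending limb sum (5464 CPM). For the proximal tubule sum it was the lowest (17643 CPM). BALB/c replicate 3 was the highest BALB/c library for the principal cell sum and for Pax2, Pax8 and Gata3. Aqp2, the water channel of principal cells, alone had 240, 498 and 138 CPM in B6 and 271, 226 and 302 CPM in BALB/c. The next most abundant markers varied less. Hsd11b2 had 106, 125.5 and 112 CPM in B6 and 94.1, 99.6 and 107 CPM in BALB/c. Aqp4 had 93.0, 101 and 80.7 CPM in B6 and 102, 69.8 and 105 CPM in BALB/c. The sum and the ratios to it therefore follow Aqp2 most. Relative to 100 CPM of the sum, Pax2 had 3.52, 4.11 and 3.62 CPM in B6 and 2.74, 2.87 and 3.70 CPM in BALB/c, so that B6 replicate 2 stood apart less than in CPM. Gata3 had 6.28, 4.69 and 6.21 CPM per 100 in B6 and 3.13, 3.74 and 4.99 in BALB/c. Pax8 had 4.99, 5.02 and 6.92 in B6 and 6.48, 8.26 and 7.38 in BALB/c. Tfcp2l1 did not follow the sum in BALB/c, where it was highest in replicate 1. It had 43.5, 35.6 and 59.6 CPM per 100 in B6 and 46.4, 46.6 and 39.8 in BALB/c, a wider spread in B6 than in CPM. In all 4 of these ratios the strains overlapped. In the strain test itself, 0 of 8 principal cell markers passed limma or limma-voom, with 3 at an unadjusted p under 0.05, beside 9.09% and 21.3% of all genes. Of the other segment markers, beside the same 9.09%, 2 of 12 of the proximal tubule passed (Slc7a13 higher, Slc5a12 lower in B6). Slc7a13, at 0.40 to 0.68 CPM in BALB/c, passed the filter on low values only through B6. It could be tested in only 3 of the 6 fits with a library left out. Of the thick limb 2 of 8 passed (Egf higher, Cldn10 lower, a call lost in 4 of 6 such fits). Of the distal tubule 4 of 7 tested passed (Slc8a1, Slc12a3 and Calb1 higher, Pvalb lower) and of intercalated cells 1 of 8 (Aqp6, lower).

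**Figure D3:**
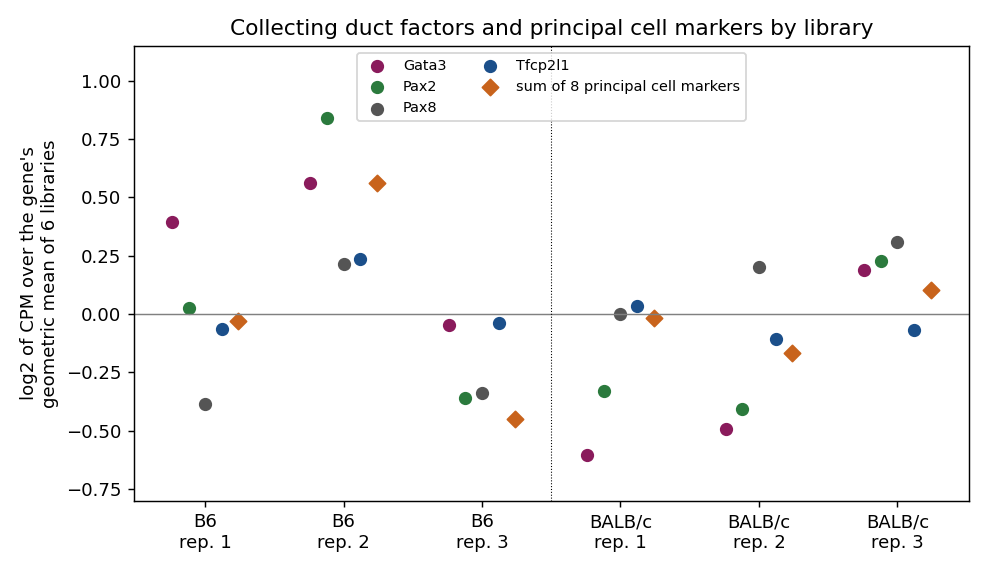
Log2 of the CPM in each library over the geometric mean of the 6 libraries, for Gata3, Pax2, Pax8, Tfcp2l1 (dots) and the sum of 8 principal cell markers (diamonds), B6 libraries left of the dotted line and BALB/c libraries right of it. B6 replicate 2 is highest for the marker sum (858 CPM), Pax2 (35.3 CPM), Gata3 (40.2 CPM) and Tfcp2l1 (306 CPM).

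Genes known as targets of each factor, mostly from mouse liver or kidney, were counted in the same fit beside the background of 9.09% called. For Ppara, 11 of 28 tested targets passed the test (39.3%), 3 higher and 8 lower in B6, with a median log2 fold of -0.13. The lower ones included Angptl4, Cyp4a10, Acot2, Acot1, Cyp4a14, Plin5 and Pex11a, and the higher ones included Acadm and Plin2. Angptl4, a secreted inhibitor of lipoprotein lipase, fell to 4.18, 4.03 and 3.81 CPM in B6, against 35.0, 26.1 and 12.9 CPM in BALB/c, a log2 fold of -2.25 ± 0.30 (SE, n = 3 each; limma adjusted p = 1.15e-05). It was lower in every B6 library than in any BALB/c library. Acadm, the medium-chain acyl-CoA dehydrogenase of mitochondria, went the other way, with 1162, 811 and 1098 CPM in B6 and 714, 699.9 and 606 CPM in BALB/c, a log2 fold of 0.59 ± 0.11 (adjusted p = 9.57e-04). The lipid droplet gene Plin2 had 0.75 (0.00921), and Plin5, a lipid droplet protein, had -1.24 (0.0135). The strand used in counting is not stated, so reads of overlapping genes on opposite strands may not have been told apart.

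Other enzymes of the pathway did not pass, among them Acadl (-0.02), Hadha (-0.05), Acadvl (0.06) and Slc27a2 (-0.10). Called targets thus lay in both directions, and Ppara itself did not pass the test. The number of called targets was 7 without BALB/c replicate 1 and 2 with a variance prior that does not follow the level. Of the 11, 6 kept their calls in every fit with 1 library left out. The share called here is a count in a chosen list and not a test of the list.

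**Figure D4:**
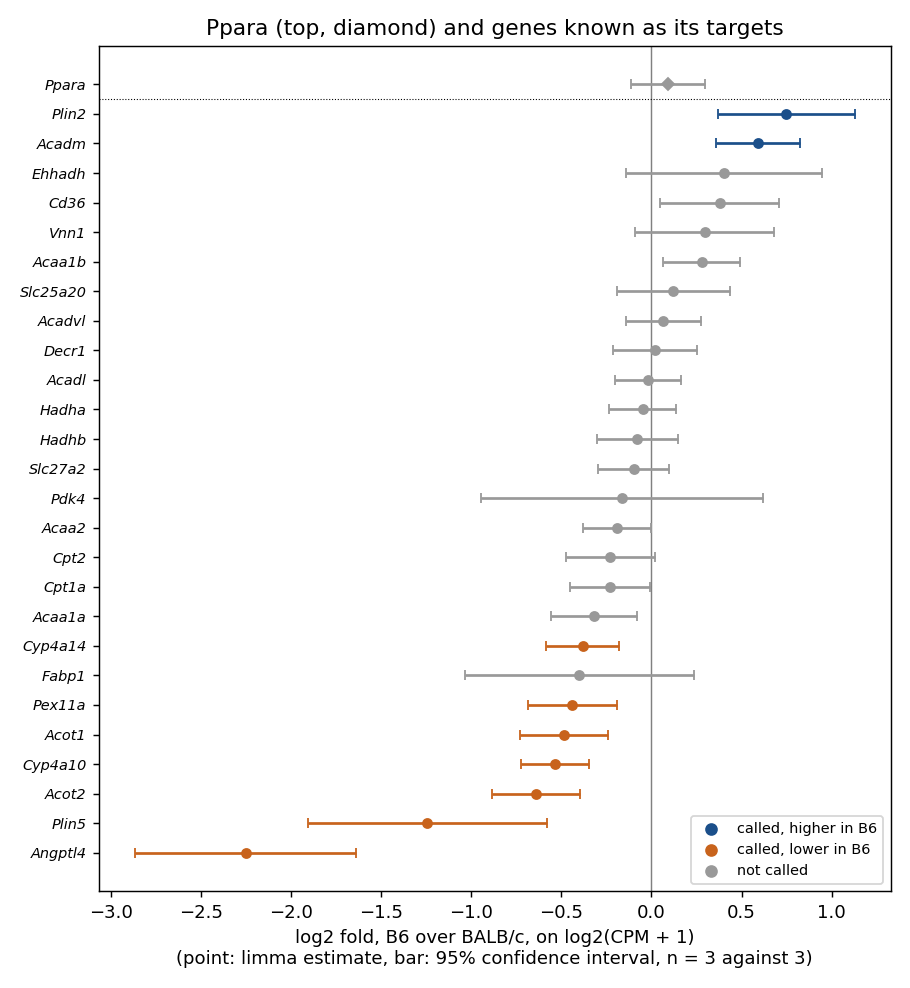
Log2 fold of B6 over BALB/c on the log2(CPM + 1) scale for Ppara (diamond, above the dotted line) and tested targets of it, with 95% confidence intervals of limma and colours for genes past an adjusted p of 0.05. Called targets lie on both sides, from -2.25 for Angptl4 to 0.75 for Plin2, while the interval of Ppara spans 0.

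For Hnf4a, 6 of 28 tested targets passed (21.4%), 4 higher and 2 lower in B6, with a median log2 fold of 0.14. Apob, Pck1, Slc22a8 and G6pc were higher, and Slc5a12 and Tmem27 were lower. Apob, the protein of liver and intestinal lipoproteins, was at 102.7, 94.9 and 126 CPM in B6, against 1.55, 2.71 and 1.30 CPM in BALB/c, a log2 fold of 5.27 ± 0.22 (SE, n = 3 each; limma adjusted p = 5.77e-14). Slc5a12, a proximal tubule lactate transporter, fell to 394, 297 and 431 CPM in B6, against 869.7, 876 and 844 CPM in BALB/c, a log2 fold of -1.22 ± 0.11 (adjusted p = 2.39e-08). G6pc, the catalytic subunit of glucose-6-phosphatase, rose to 1078, 974 and 1323 CPM in B6, against 677, 529.8 and 577 CPM in BALB/c, a log2 fold of 0.91 ± 0.11 (SE, n = 3 each; limma adjusted p = 2.77e-06). The abundant targets Slc34a1, a phosphate transporter, and Lrp2, which encodes megalin, had 0.25 (adjusted p = 0.112) and 0.12 (0.468). The calls of Slc22a8 and Tmem27 each ended in 3 of the 6 fits with a library left out.

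For Nr1h4, 3 of 13 tested targets passed (23.1%), Abcc2 and Fgg higher and Slc51a lower in B6. Abcc2, an apical efflux pump of organic anions, rose to 179.6, 164 and 155 CPM in B6, against 62.9, 45.05 and 60.3 CPM in BALB/c, a log2 fold of 1.56 ± 0.13 (SE, n = 3 each; limma adjusted p = 5.57e-09), in every library higher than in BALB/c. Slc51a, a subunit of the basolateral bile acid transporter, had -0.63 (adjusted p = 0.0497), a call that ended in 10 of 16 alternatives, and its exons overlap those of Pcyt1a. Its partner subunit Slc51b had -0.23 (0.289). The fibrinogen gene Fgg had 1.80 (0.00806), and passed no longer once BALB/c replicate 1, with 1 read, was left out (0.0633). The hepatocyte genes Fgb (3.24) and Apoa2 (1.73) were called higher in B6 too, while Serpina3k (-0.30) and Ahsg (-0.09) were not called. The part of hepatocyte transcripts in the Fgg difference was not tested. The number of called targets was 1 when BALB/c replicate 1 was left out, when every gene with a read was tested, or when the variance prior did not follow the level. The abundant Fbp1, a gluconeogenic enzyme, had -0.21 (0.158). Nr0b2, which encodes the corepressor SHP, was at 1.51 to 3.25 CPM in B6 and 2.03 to 3.41 CPM in BALB/c. The liver and intestine targets Abcb11, Cyp7a1 and Fgf15 had 0 reads in all libraries.

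For Esrrg, 2 of 28 tested targets of ERR factors passed (7.14%), Acadm and Idh3a, both higher in B6, with a median log2 fold over the list of -0.07. Idh3a, a subunit of mitochondrial isocitrate dehydrogenase, had 0.33 (limma adjusted p = 0.0492), and its call ended in 14 of 16 alternatives. The abundant Atp1b1 and Atp5a1 had 0.11 (adjusted p = 0.646) and 0.01 (0.956).

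For Pax2 and Pax8, 0 of 12 tested genes passed limma and limma-voom called 0. At an unadjusted p under 0.05 there were 3, beside 21.3% of all genes. Slc14a2, the collecting duct urea transporter, was at 44.1, 48.8 and 32.8 CPM in B6, against 20.2, 31.4 and 34.4 CPM in BALB/c, with overlap and a log2 fold of 0.55 (adjusted p = 0.0751). It was called, as was Gata3, a member of that list, without B6 replicate 3 or BALB/c replicate 3, and Aqp2 was called without B6 replicate 2. The abundant Cdh16 and Aqp2 had 0.15 (0.375) and -0.05 (0.940) with all libraries.

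For Tfcp2l1, 3 of 20 genes passed, with a median log2 fold of 0.18. Oxgr1, the oxoglutarate receptor of intercalated cells, rose to 21.02, 33.8 and 31.9 CPM in B6, against 12.97, 17.2 and 12.9 CPM in BALB/c, a log2 fold of 0.94 ± 0.21 (SE, n = 3 each; limma adjusted p = 0.00436). Hes1, a Notch effector, and Aqp6, an intercalated cell channel, were lower with -0.53 (0.0119) and -0.54 (0.0130). With a library left out, Hes1 lost its call in 2 of 6 fits and Aqp6 in 3. The number called was 1 without BALB/c replicate 3 and 0 when the variance prior did not follow the level. The abundant proton pump subunit gene Atp6v0a4 had 0.28 (0.0739) and the carbonic anhydrase gene Car2 0.23 (0.132).

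Partners of the nuclear receptors did not differ at the threshold. Of 16 RXR, coactivator and corepressor genes 0 passed limma or limma-voom, and 2 had an unadjusted p under 0.05. Over all genes 9.09% passed limma and 21.3% had an unadjusted p under 0.05. The shared partner Rxra was at 68.0, 62.5 and 61.1 CPM in B6, against 48.1, 57.8 and 70.6 CPM in BALB/c, with overlap and a log2 fold of 0.13 (limma adjusted p = 0.657). The coactivator genes Ppargc1a and Ppargc1b had 0.06 (0.821) and -0.40 (0.0755), and the abundant corepressor Ncor1 had 0.08 (0.646). The acetyltransferase gene Ep300 had 0.45 (0.0604) and was called without BALB/c replicate 2.

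Among 34 other transcription regulators of kidney epithelium, 6 passed (17.6%, beside 9.09% of all genes), 4 lower and 2 higher in B6. Irx3, an Iroquois homeobox factor known for nephron segment patterning in Xenopus, fell to 82.1, 88.3 and 82.9 CPM in B6, against 143, 127 and 138 CPM in BALB/c, a log2 fold of -0.68 ± 0.11 (SE, n = 3 each; limma adjusted p = 1.19e-04). Irx3 was lower in every B6 library and kept its call in all 16 alternatives, and its exons overlap those of Irx3os. Vdr, the vitamin D receptor, had -0.39 (0.00837), the related Iroquois factor gene Irx1 -0.58 (0.0232) and Sall1, a zinc finger regulator of kidney development, -0.48 (0.0374). With a library left out, Irx1 and Sall1 each lost their call in 4 of 6 fits and Vdr in 1. The homeobox gene Hoxd8 rose to 239, 275 and 222.5 CPM in B6, against 168, 181 and 155 CPM in BALB/c, a log2 fold of 0.54 ± 0.10 (9.78e-04). Prdm16 had 0.69 (0.0398), a call lost in 9 of 16 alternatives, and its exons overlap those of B230104I21Rik. The number of calls in this list was 3 without B6 replicate 1, 2 without BALB/c replicate 1, 3 with no filter beyond 1 read and 1, Irx3, with a variance prior that does not follow the level. The abundant regulator gene Maf had -0.08 (0.682).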

How the data were processed

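RNA of 3 B6 and 3 BALB/c kidneys was extracted with Trizol and made into QuantSeq 3′ libraries, per the labels' protocols. Bowtie2, bedtools and build mm10 are named in the submitters' processing notes; for versions, annotation, strand use and scaling the sources used here give nothing. Each deposited file holds log2 values per gene symbol. From the values they are log2(CPM + 1) with a further factor per library, since in every library 100% of values up to 20 reads were whole within 0.1 read. Reads recovered so give the depth, and CV and detection limits from them cover counting error only.

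Genes with a log2 value of at least 1 in at least 3 libraries were fitted with limma 3.58.1 in R 4.3.3 on the deposited values, strain as the sole term and the variance prior following the level, two-sided, adjusted over all 13317 genes. The prior contributed 18.4 degrees of freedom beside 4 residual ones. The fit was checked on simulated data with known changes, all larger than the fold of any of the factors. That check does not cover changes as small as theirs. The deposited values are no raw counts, so a count method was only an alternative, limma-voom on recovered reads. Alternatives were other scalings, pseudocounts of 0.5 and 5 CPM, filters, limma-voom, no trend, a replicate block and each library left out.

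Replicates are separate mice per the series' text, and same-strain pairs were further apart than counting noise allows (chi-square over its degrees of freedom 7.75 to 16.3). Positions and overlaps came from GENCODE M21 (GRCm38, the assembly of mm10), promoters from RefSeq (GRCm38.p6; all 8 factors matched). No factor shared a 3′ end: 0 of 51 words of 50 bases, taken every 5 bases from the last 300, occurred in transcripts of another gene. BALB/c reads were aligned to a B6 reference, and loss of reads was not tested. The members and lists were chosen with earlier results of these data known. The text names all 8 factors, of each list up to 4 called genes with the smallest p, and of target lists the 2 most abundant genes; any other list gene named was picked after its values were seen. Peci was not matched to a row. Some list genes that enter the counts are not reported here.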

Additional observations from a re-analysis of the deposited data

How the results depend on the processing

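Each of the 8 factors was refitted under 16 alternatives, and 125 of 128 results kept their direction and their side of the threshold. The exceptions were Gata3, called without B6 replicate 3 or BALB/c replicate 3, and Tfcp2l1, whose fold changed sign without B6 replicate 2. With a library left out, the log2 fold of Gata3 was between 0.44 and 0.82, that of Tfcp2l1 between -0.0050 and 0.14, the number of factors called between 0 and 1, and the number of all genes called between 777 and 1125 (1211 with all). With no trend in the variance prior 493 genes were called and with the replicate block 977. In these 2 fits 0 factors were called, and the block left Gata3 at 0.58 (limma adjusted p = 0.126). Deviations from the strain means correlated at 0.012, -0.057 and -0.084 in same-numbered libraries, beside -0.034 to 0.093 in differently numbered ones. Same-numbered libraries were thus not more alike by this measure, and a batch shared by replicate number was not tested. Of 320 list counts under alternatives, 278 stayed within 1.5 times. Among the 8 factors counting error was largest for Pax2, with 126 reads in its lowest library. At 6.70% in B6 and 7.61% in BALB/c it was below the CV between mice of 44.2% and 25.3%. The causes of these changes were not tested.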
